A study of Mus musculus with 4 samples.

Results

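Hes1, Etv5 and Zbtb20 encode transcription factors used in organ formation, and all lie on mouse chromosome 16. The 3 genes were taken from the deposited table by symbol, out of 36186 rows. RNA was sequenced from SV/129 mouse embryos of the PTC-/-MM genotype at E13.5, in which the hedgehog receptor Patched is removed from the metanephric mesenchyme, the tissue around the budding ureter. Tissue was dissected at the kidney-ureter junction and its cells were separated by staining for PTC2, a related hedgehog receptor, into PTC2+ and PTC2− cells, with 2 libraries each. Both populations come from embryos of the same genotype, and normal embryos are not analysed here. Which of the sorted cells carry the deletion was not tested. The labels name neither the Cre line nor the number of embryos behind a library, so a p-value speaks only of the spread among the 4 libraries, which may be technical.

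As background, Hes1 is a basic helix-loop-helix repressor that Notch receptors switch on. A cleaved Notch receptor joins the DNA-binding protein RBPJ at Hes1, and HES1 in turn shuts off genes of differentiation, its own gene included. Etv5 is an ETS-family activator induced by the receptor kinase RET and by FGF receptors through ERK, and with Etv4 it directs branching at the tips of the ureteric bud. Zbtb20 is a repressor of the BTB zinc finger family, known for roles in hippocampal neurons, pituitary and liver.

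Zbtb20 was the member with the largest difference. It averaged 36.9 NRPKM in PTC2+ cells and 67.9 NRPKM in PTC2− cells. Etv5 was the most abundant and averaged 186 NRPKM in PTC2+ and 154.5 NRPKM in PTC2− cells. Hes1 averaged 35.4 and 40.0 NRPKM. NRPKM is normalized RPKM, which scales reads to gene length and sequencing depth, so levels of different genes can be set side by side per length. The length used for each gene is not given, which limits such comparisons. No member passed an adjusted p of 0.05 over the table, a threshold that 2.92% of all 11807 rows tested did pass (2.44% higher and 0.483% lower in PTC2+ cells). The populations did not overlap in Zbtb20 and Etv5 and overlapped in Hes1, and 49.5% of all rows tested showed no overlap.

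Names in the table could be relied on only in 3 chromosome segments, and the chromosome 16 segment from Naa60 to Mrps6, with 974 rows, holds all 3 members. Outside the segments the row listed as Rps6, a ribosomal protein gene of every growing cell, was at 0 in every library. The row listed as Ptch1, the Patched gene, stood at 5.99 and 4.18 NRPKM in PTC2+ cells (replicates 1 and 2), against 7.57 and 5.81 NRPKM in PTC2− cells (replicates 1 and 2), and lies outside the segments, so it does not check the genotype. Column sums lay between 283806 and 288752 NRPKM. Read counts were not recovered, so the depth behind each value is unknown.

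The DNA before the annotated starts of Etv5 and Zbtb20 is shown because it is where GLI, RBPJ and ETS proteins, the end points of hedgehog, Notch and receptor kinase signalling, could be looked for. The sequences are those of RefSeq on GRCm38.p6, where 2 of the 3 members have an entry, and each runs over the 250 bases up to the start, 5′ to 3′ on the strand of the gene. Capitals mark the letters TGGGAA (the core bound by RBPJ) and GGAAGT (a core of ETS sites). The first Etv5 start, at chr16:22439571-22439820 on the minus strand, is GC-rich (71.2%) and holds no capitals.
Etv5 start 1: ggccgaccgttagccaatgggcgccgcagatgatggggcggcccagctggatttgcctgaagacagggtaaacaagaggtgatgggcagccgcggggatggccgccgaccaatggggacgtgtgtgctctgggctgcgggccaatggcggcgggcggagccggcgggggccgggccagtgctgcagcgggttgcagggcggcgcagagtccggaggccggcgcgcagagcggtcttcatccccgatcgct
Etv5 start 2: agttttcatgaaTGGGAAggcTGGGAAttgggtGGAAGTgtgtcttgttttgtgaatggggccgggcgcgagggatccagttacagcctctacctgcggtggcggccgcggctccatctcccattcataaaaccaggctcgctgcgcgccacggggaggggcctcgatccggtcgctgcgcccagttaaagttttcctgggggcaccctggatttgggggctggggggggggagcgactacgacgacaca
Zbtb20 start: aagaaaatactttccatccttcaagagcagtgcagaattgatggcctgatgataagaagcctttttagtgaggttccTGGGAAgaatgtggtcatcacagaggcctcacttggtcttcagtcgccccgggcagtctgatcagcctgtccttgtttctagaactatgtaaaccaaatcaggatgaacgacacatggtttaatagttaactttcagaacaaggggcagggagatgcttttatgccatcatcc
The second Etv5 start, at chr16:22438369-22438618 on the minus strand, holds TGGGAA at 2 places and GGAAGT at 1 place, all close together. The Zbtb20 start, at chr16:43247034-43247283 on the plus strand, holds TGGGAA at 1 place. It is an internal start, since GENCODE begins Zbtb20 at 42875881 on GRCm38, and the DNA before that point is not shown. Both strands were searched, and TGGGAA and GGAAGT share the bases GGAA but do not overlap in these windows. Of 32851 RefSeq promoter windows of the same length, 21.6% hold TGGGAA and 19.7% hold GGAAGT. The GLI consensus TGGGTGGTC, which 0.225% of windows hold, the E box CACGTG (6.02%) and the N box CACNAG (36.7%), a site bound by HES proteins, are not in these 3 windows. A match of letters is a description of the window and not a binding site.

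Hes1, the Notch target, stood at 34.8 and 36.0 NRPKM in PTC2+ cells (replicates 1 and 2), against 45.4 and 34.7 NRPKM in PTC2− cells (replicates 1 and 2). PTC2− replicate 1 was the highest library, the other three lay close together, and the populations overlapped. The mean level was 35.4 ± 0.830 NRPKM in PTC2+ and 40.0 ± 7.56 NRPKM in PTC2− cells (SD, n = 2 each). The log2 difference, PTC2+ minus PTC2− on the log2(NRPKM + 1) scale, was -0.16 (SE 0.21), and limma gave an adjusted p of 0.741. The 95% interval of the fold, PTC2+ over PTC2−, ran from 0.624 to 1.28, so folds between these bounds could not be told from no difference with these libraries. Without PTC2− replicate 1 the log2 difference was 0.029.

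Etv5, the target of RET and FGF signalling, stood at 198 and 174 NRPKM in PTC2+ cells (replicates 1 and 2), against 151.5 and 157 NRPKM in PTC2− cells (replicates 1 and 2). Both PTC2+ libraries lay above both PTC2− libraries. The means were 186 ± 16.9 and 154.5 ± 4.15 NRPKM (SD, n = 2 each), and the log2 difference was 0.26 (SE 0.14, limma adjusted p = 0.379). The fold, PTC2+ over PTC2−, was 1.20 with a 95% interval from 0.940 to 1.53. Etv5 ranked 29th by mean level among the 475 rows tested in the chromosome 16 segment, whose median level was 30.4 NRPKM, so it was among the abundant transcripts of both populations.

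Zbtb20, the BTB zinc finger repressor, stood at 38.0 and 35.9 NRPKM in PTC2+ cells (replicates 1 and 2), against 60.1 and 75.7 NRPKM in PTC2− cells (replicates 1 and 2). Both PTC2− libraries lay above both PTC2+ libraries, and the PTC2− libraries were further apart than the PTC2+ libraries. The means were 36.9 ± 1.49 and 67.9 ± 11.0 NRPKM (SD, n = 2 each). The log2 difference was -0.85 (SE 0.19), which is 1.81-fold more in PTC2− cells with a 95% interval from 1.30 to 2.51. By limma its unadjusted p was 0.00498, where 19.8% of all rows tested lay under 0.05, and its adjusted p over all 11807 rows 0.0884, so it was not called. With p adjusted over the 711 segment rows tested, of which 11.1% passed, its adjusted p was 0.0473. Among the 475 rows tested in the chromosome 16 segment, 32 had a difference as low as that of Zbtb20 or lower, Zbtb20 included. In bulk libraries fewer cells that make a transcript and less transcript per cell cannot be told apart.

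An exact permutation test of each member on its own, two-sided, cannot go below p = 0.333 with 2 libraries against 2. It gave that p for Etv5 and for Zbtb20 and 1 for Hes1.

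**Figure D1:**
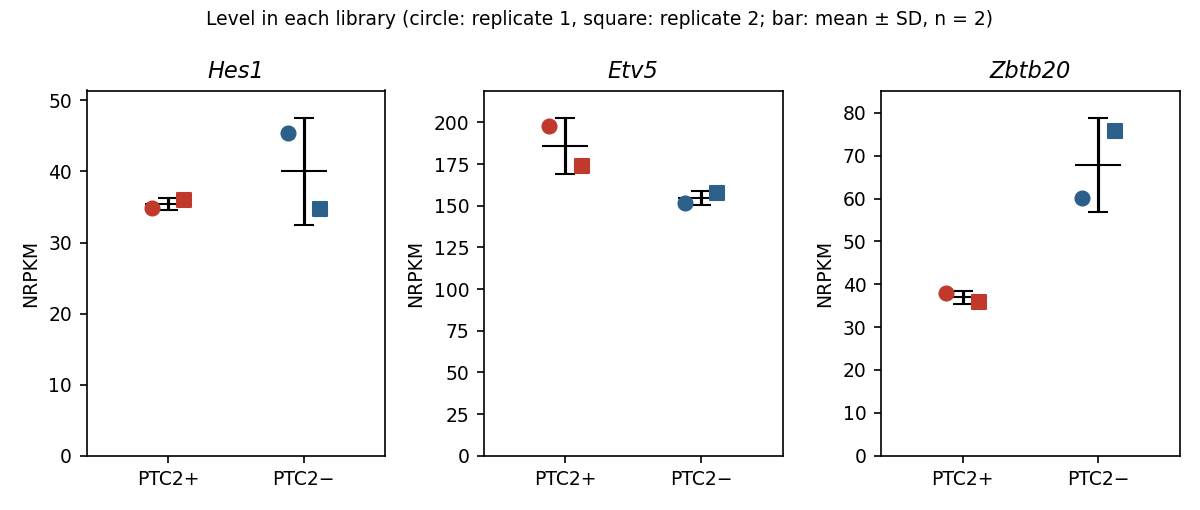
Level of Hes1, Etv5 and Zbtb20 in NRPKM (vertical axis from 0) in each of the 4 libraries, with PTC2+ in red and PTC2− in blue. Black bars give the mean ± SD of 2 libraries, and the populations overlap in Hes1 while Zbtb20 stands at 38.0 and 35.9 NRPKM in PTC2+ against 60.1 and 75.7 NRPKM in PTC2− libraries.

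Etv5 was the most abundant member in every library, per length as deposited. The length used for each gene is not given. GENCODE coding transcripts measure 439 to 26901 bases for Zbtb20 and 489 to 3975 bases for Etv5. The order of the members and the size of the ratios below depend on those lengths, while the same ratio can be compared between libraries. The level of Etv5 over that of Zbtb20 was 5.21 and 4.85 in PTC2+ cells, against 2.52 and 2.08 in PTC2− cells. The level of Etv5 over that of Hes1 was 5.69 and 4.84 in PTC2+ cells, against 3.34 and 4.54 in PTC2− cells. Zbtb20 and Hes1 overlapped in level in PTC2+ cells, with ratios of 1.09 and 0.997. In PTC2− cells Zbtb20 stood above Hes1, by 1.32 and 2.18 times. These ratios move with the differences of the members and are no separate result.

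**Figure D2:**
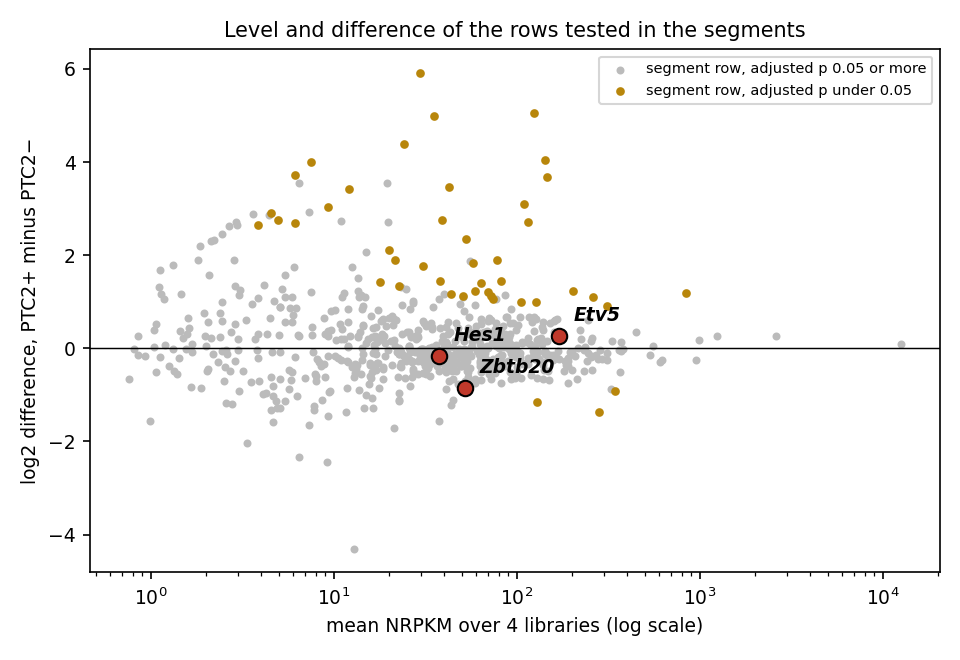
Mean level over 4 libraries (horizontal axis, NRPKM on a log scale) against the log2 difference PTC2+ minus PTC2− (vertical axis) of the 711 rows tested in the segments. Gold rows passed an adjusted p of 0.05 over the whole table, and the members, in red, are not among them.

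Zbtb20 is a very long gene that shares its ground with other rows. GENCODE places it on chromosome 16 of GRCm38 from 42875881 to 43642602 on the plus strand, and its longest coding transcript measures 26901 bases, of which the last exon holds 24280. Of the RNAs annotated inside it, the antisense RNA Gm15713 stood at 10.3 and 6.18 NRPKM in PTC2+ cells, against 21.0 and 20.7 NRPKM in PTC2− cells (limma adjusted p = 0.115). It was lower in each PTC2+ library, as for Zbtb20, where 59.6% of segment rows tested showed no overlap in either direction. BC002163, a transcribed pseudogene, stood at 19.9 and 26.4 against 28.6 and 40.2 NRPKM (limma adjusted p = 0.335). The antisense RNA Gm19522 overlapped between the populations, at 11.7 and 19.3 against 7.71 and 17.1 NRPKM. The labels do not say that reads were counted by strand, so reads of Zbtb20 and of antisense RNAs inside it cannot be told apart.

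Tigit, an inhibitory receptor gene of T cells and natural killer cells, is the next protein-coding gene after Zbtb20, and its RefSeq interval overlaps that of Zbtb20 on the opposite strand. The row listed as Tigit stood at 77.8 and 103 NRPKM in PTC2+ cells, against 60.7 and 92.6 NRPKM in PTC2− cells, higher than Zbtb20 in every library and overlapping between the populations (log2 difference 0.26, SE 0.26, limma adjusted p = 0.662). Where the 2 gene models overlap, reads of the last exon of Zbtb20 and of Tigit cannot be told apart either. The microRNA miR-568 lies on the same strand within the last exon of Zbtb20 in GENCODE, but 6.26 kb outside the RefSeq interval of Zbtb20. It is shown for its place in GENCODE, with its seed (bases 2 to 8) in capitals.
mmu-miR-568: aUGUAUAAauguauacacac
The row of its 83-base hairpin stood at 37.5 and 17.5 NRPKM in PTC2+ cells, against 48.6 and 20.1 NRPKM in PTC2− cells. Replicate 1 lay above replicate 2 in both populations, and the populations overlapped.

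The genes next to each member in order along the chromosome had levels and differences of their own. Before Etv5 lie Igf2bp2, an mRNA-binding protein of fetal tissue, and Tra2b, a splicing regulator. Igf2bp2 stood at 119 and 113 NRPKM in PTC2+ cells, against 185 NRPKM in each of the PTC2− libraries (log2 difference -0.67, SE 0.13, limma adjusted p = 0.0699), opposite in sign to Etv5. Tra2b stood at 336 and 267 against 524 and 342 NRPKM (limma adjusted p = 0.326). After Etv5 lie Dgkg, a diacylglycerol kinase, and Crygs, a lens crystallin, which averaged between 1.16 and 3.99 NRPKM in the populations.

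Hes1 stands next to Opa1, which encodes a mitochondrial fusion protein and stood at 54.2 and 50.0 against 58.7 and 48.3 NRPKM, with overlap (limma adjusted p = 0.951). On its other side Cpn2, a subunit of the plasma enzyme carboxypeptidase N, averaged 0.0937 NRPKM in PTC2+ cells and had 0 in each PTC2− library. Lrrc15, a leucine-rich repeat protein, averaged 0.770 and 1.36 NRPKM. Atp13a4, a P-type ATPase, averaged 2.62 NRPKM in PTC2+ and 0.0353 NRPKM in PTC2− cells (limma adjusted p = 0.103). It entered the test only through the PTC2+ libraries.

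Before Zbtb20 lie Lsamp and Gap43, a cell adhesion protein and a growth cone protein of neurons. Lsamp stood at 3.67 and 4.27 NRPKM in PTC2+ cells, against 13.0 and 10.1 NRPKM in PTC2− cells (log2 difference -1.33, SE 0.36, limma adjusted p = 0.127). Gap43 was listed at 0 in PTC2+ replicate 1 and stood at 4.37 NRPKM in PTC2+ replicate 2, against 11.3 and 10.2 NRPKM in the PTC2− libraries (limma adjusted p = 0.202). Both were thus lower in each PTC2+ library, as Zbtb20 was, and neither passed the test. Of all segment rows tested, 59.6% showed no overlap between the populations, in either direction. Drd3, a dopamine receptor gene beyond Tigit, stood at 0.598 NRPKM in PTC2+ replicate 2 and at 0 in the other libraries.

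**Figure D3:**
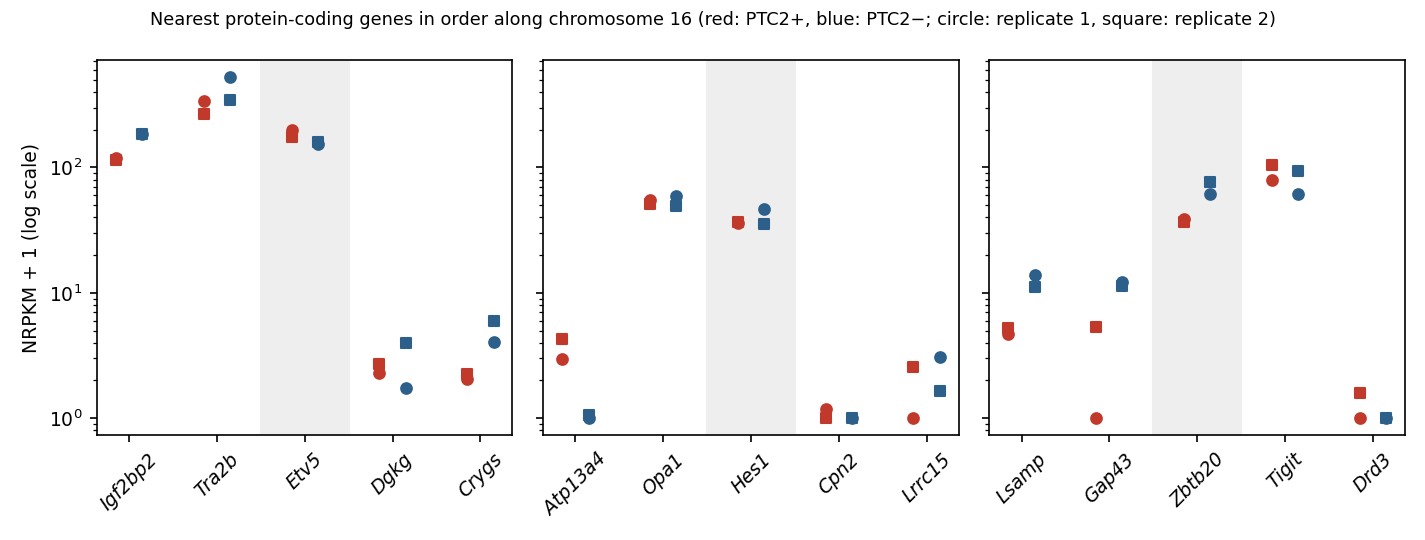
Level of each member (shaded) and of the nearest 2 protein-coding genes on each side, as NRPKM + 1 on a log scale, with PTC2+ in red and PTC2− in blue. Lsamp, Gap43 and Zbtb20 are lower in both PTC2+ libraries than in both PTC2− libraries, while Etv5 is higher and Igf2bp2 and Tra2b are lower. Of all segment rows tested, 59.6% show no overlap.

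Of 54 genes of the Notch pathway, 6 lie in the segments. Of the 5 besides Hes1, 2 rose in PTC2+ cells and 0 fell, and 3 did not pass, where 6.19% of segment rows tested passed (5.77% higher and 0.422% lower). Their median log2 difference was -0.04, beside -0.03 over all rows tested. The genes that rose are not core parts of the Notch signal. Bcl6, a BTB zinc finger repressor best known in germinal centre B cells that also represses some Notch targets, stood at 44.4 and 51.3 NRPKM in PTC2+ cells, against 14.2 and 12.6 NRPKM in PTC2− cells (log2 difference 1.76, SE 0.21, limma adjusted p = 0.0251). Dtx3l, a ubiquitin ligase of the Deltex family that acts with Parp9 and is induced by interferon, stood at 34.2 and 32.1 against 12.8 and 12.3 NRPKM (log2 difference 1.33, SE 0.22, limma adjusted p = 0.0448). Both calls were lost when any 1 library was left out (limma adjusted p 0.134 to 0.261), with log2 differences of 1.66 to 1.86 for Bcl6 and 1.29 to 1.38 for Dtx3l. The call of Dtx3l was also lost with the replicate number as a block (limma adjusted p = 0.0595) and with a pseudocount of 0.1 (limma adjusted p = 0.0568).

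The genes of the list that modify Notch receptors or assist the Notch transcription complex did not pass. Poglut1, which adds glucose to Notch receptors, stood at 55.1 and 59.6 against 83.4 and 84.1 NRPKM (log2 difference -0.54, SE 0.15, limma adjusted p = 0.140). Xxylt1, which lengthens that sugar with xylose, stood between 35.7 and 39.6 NRPKM in all 4 libraries. Crebbp, a histone acetyltransferase used by many activators, averaged 357 and 369 NRPKM. The receptors, ligands and RBPJ itself lie outside the segments and could not be read by name.

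Of 44 genes of RET, FGF and ERK signalling, 8 lie in the segments. Of the 7 besides Etv5, 1 rose in PTC2+ cells, 0 fell and 6 did not pass, and their median log2 difference was -0.13. Of all segment rows tested, 6.19% passed (5.77% higher and 0.422% lower). The gene that rose was Map3k11, a mixed-lineage kinase known chiefly as an activator of JNK signalling. It stood at 169 and 171 NRPKM in PTC2+ cells, against 91.5 and 78.6 NRPKM in PTC2− cells (log2 difference 1.00, SE 0.15, limma adjusted p = 0.0378). Without any 1 library its call was lost (limma adjusted p 0.152 to 0.264), with log2 differences of 0.89 to 1.11, and with upper-quartile scaling too (limma adjusted p = 0.0519).

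Crkl, an adaptor that links receptor kinases to RAS and RAP proteins, stood at 152 and 149 NRPKM in PTC2+ cells, against 220 and 204 NRPKM in PTC2− cells (log2 difference -0.49, SE 0.13, limma adjusted p = 0.129). Ppp1ca, a phosphatase, stood at 1239 and 887 against 1059 and 803 NRPKM, and Lztr1, which directs RAS proteins to degradation, averaged 49.0 and 53.2 NRPKM, each with overlap. So did Fosl1, an AP-1 transcription factor induced by ERK, at 11.5 and 4.56 against 11.8 and 7.72 NRPKM. Fgf12, a relative of FGFs that stays inside the cell, stood at 2.14 and 1.78 against 0.259 and 0.380 NRPKM (limma adjusted p = 0.197). It entered the test only through the PTC2+ libraries. Ret, Etv4 and the FGF receptors lie outside the segments.

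Few relatives of the members could be read. Gabpa, the other ETS factor in the segments, stood at 99.3 and 94.3 NRPKM in PTC2+ cells, against 149 and 139 NRPKM in PTC2− cells (log2 difference -0.57, SE 0.14, limma adjusted p = 0.111), opposite in sign to Etv5. The BTB zinc finger family has 4 genes in the segments, where 6.19% of rows tested passed. Bcl6 rose, and Zbtb20, Zbtb11 and Hic2 did not pass. Zbtb11 stood at 49.7 and 42.9 against 65.5 and 56.5 NRPKM (limma adjusted p = 0.312). Hic2 overlapped between the populations (limma adjusted p = 0.638).

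**Figure D4:**
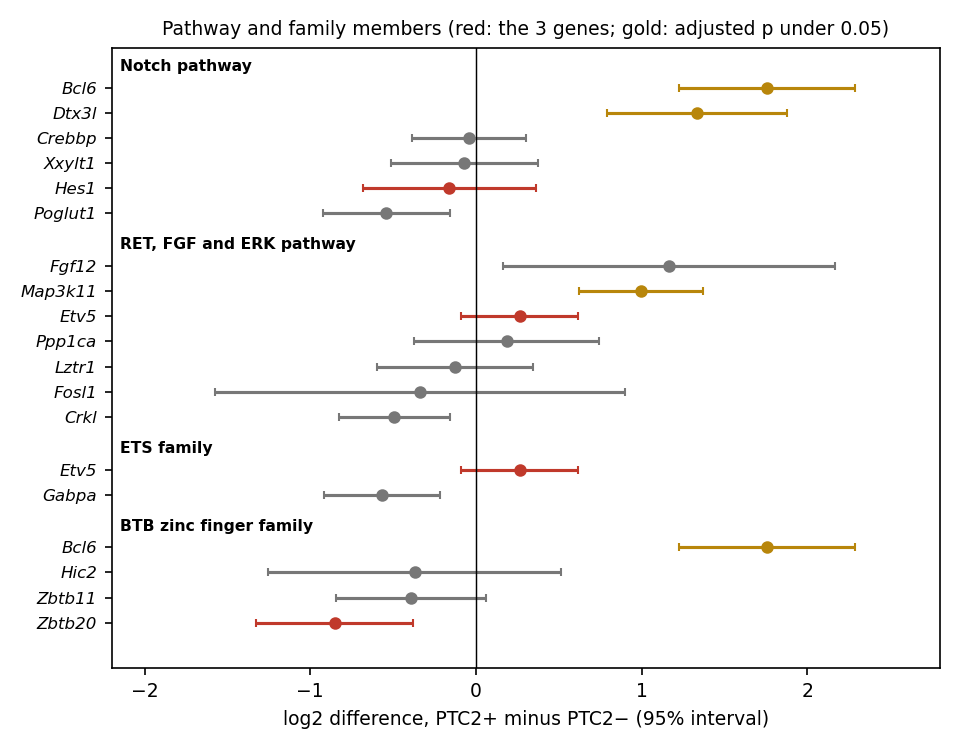
Log2 difference PTC2+ minus PTC2− with its 95% interval for tested genes of 4 lists that lie in the segments, all but 1 of which are drawn. Members are in red, and Bcl6 (shown in both of its lists), Dtx3l and Map3k11, in gold, passed an adjusted p of 0.05 over the table.

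Of 28 other transcription regulators, 24 lie in the segments and 16 were tested. Of these, 1 rose, 1 fell and 14 did not pass, where 6.19% of segment rows tested passed. Their median log2 difference was 0.21. Nfkbiz, an inducible regulator of NF-κB targets, stood at 124 and 122 NRPKM in PTC2+ cells, against 36.1 and 28.8 NRPKM in PTC2− cells (limma adjusted p = 0.0149). Snai2, a repressor of mesenchymal cells, stood at 172 and 141 against 367 and 441 NRPKM (log2 difference -1.36, SE 0.17, limma adjusted p = 0.0261). Without any 1 library neither kept its call (limma adjusted p 0.0591 to 0.253), with log2 differences of 1.75 to 2.06 for Nfkbiz and -1.50 to -1.22 for Snai2. Of the regulators that did not pass, Tfdp1, a partner of E2F proteins, and Nrip1, a corepressor of nuclear receptors, were the most abundant. Tfdp1 averaged 257 and 286 NRPKM and overlapped between the populations (limma adjusted p = 0.662), and Nrip1 stood at 157 and 150.3 against 99.4 and 91.4 NRPKM (log2 difference 0.68, SE 0.14, limma adjusted p = 0.0755).

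Markers of other cell types differed between the sorted populations beside these genes. The 16 myeloid markers in the segments summed to 843 and 775 NRPKM in PTC2+ cells, against 61.7 and 67.4 NRPKM in PTC2− cells. Nrros (309 and 231 NRPKM) and Unc93b1 (243 and 244 NRPKM) made up most of the PTC2+ sums. Of 15 tested 7 rose and 0 fell, where 6.19% of segment rows tested passed (5.77% higher and 0.422% lower). Tnfsf13b went the other way, at 3.4 and 2.6 against 7.9 and 7.6 NRPKM (limma adjusted p = 0.196). Cd86, Cd200r1, Cd200r4, Stfa1, Stfa3 and Stfa2l1 were listed at 0 in both PTC2− libraries. These genes entered the test only through the PTC2+ libraries, so they could only come out higher there. Among them Cd200r4, Stfa1 and Stfa3 did not pass. The 7 epithelial markers summed to 193 and 176 against 76.8 and 69.7 NRPKM, and 2 of 4 tested rose, beside 5.77% of segment rows tested. Of these, Muc20 stood at 6.69 and 10.8 against 0.602 and 0 NRPKM. It too entered the test only through the PTC2+ libraries and could only come out higher there. The 8 mesenchymal markers summed to 1461 and 1141 against 2086 and 1817 NRPKM. Of these sums, Fstl1 alone stood at 980 and 755 against 1177 and 899.5 NRPKM, with overlap (limma adjusted p = 0.555). Of 8 mesenchymal markers tested 2 fell, beside 0.422% of segment rows tested. Without PTC2+ replicate 1 or PTC2+ replicate 2 no row of the table passed by limma, where 1757 and 1815 had an unadjusted p below 0.05, and 42 and 32 rows did without PTC2− replicate 1 and without PTC2− replicate 2. The part of these markers' cells in the levels of Hes1, Etv5 and Zbtb20, and in the rise of Bcl6, Dtx3l, Map3k11 and Nfkbiz, was not tested.

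The remaining marker lists held no gene that passed, beside 6.19% of segment rows tested. The 3 endothelial markers summed to 147 and 108 NRPKM in PTC2+ cells, against 146 and 169 NRPKM in PTC2− cells. The 6 neural markers summed to 3.95 and 9.57 against 24.8 and 21.6 NRPKM, of which Lsamp and Gap43 made up most. The 2 smooth muscle markers summed to 72.0 and 54.3 against 100 and 80.3 NRPKM. The 5 platelet and lymphoid markers summed to 84.4 and 109 against 72.6 and 107 NRPKM, most of it the Tigit row.

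Other genes were picked for following the members across the 4 libraries, so their likeness is no separate result. Likeness was measured as the root mean square distance between log2 deviations from each gene's own mean, over 636 other protein-coding genes tested in the segments, and with 4 libraries it describes these samples only. Nearest to Hes1 were Polr2h, an RNA polymerase subunit, Abhd13 and Tfdp1, at distances of 0.0147, 0.0217 and 0.0407. Polr2h stood at 239 and 247 NRPKM in PTC2+ cells, against 306 and 242 NRPKM in PTC2− cells, with the same high value in PTC2− replicate 1 as Hes1.

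Nearest to Etv5 were Cfl1, an actin-severing protein, Mcph1, a protein of chromosome condensation, and Tmem50b, at distances of 0.0228, 0.0470 and 0.0504. Cfl1 stood at 3074 and 2647 NRPKM in PTC2+ cells, against 2362 and 2361 NRPKM in PTC2− cells (limma adjusted p = 0.385). Nearest to Zbtb20 were Ctxn1, Cep97 and Jam2, at distances of 0.0743, 0.0935 and 0.108. Ctxn1, a small neuronal membrane protein, stood at 229 and 245 against 410 and 491 NRPKM and fell in PTC2+ cells (log2 difference -0.92, limma adjusted p = 0.0436). Without any 1 library its call was lost (limma adjusted p 0.158 to 0.286), with log2 differences of -1.05 to -0.79, and with quantile normalization too (limma adjusted p = 0.0514). Cep97, which restrains cilium assembly, averaged 28.5 and 53.4 NRPKM (limma adjusted p = 0.0686). Jam2, a junctional adhesion molecule, averaged 6.26 and 12.9 NRPKM (limma adjusted p = 0.232).

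**Figure D5:**
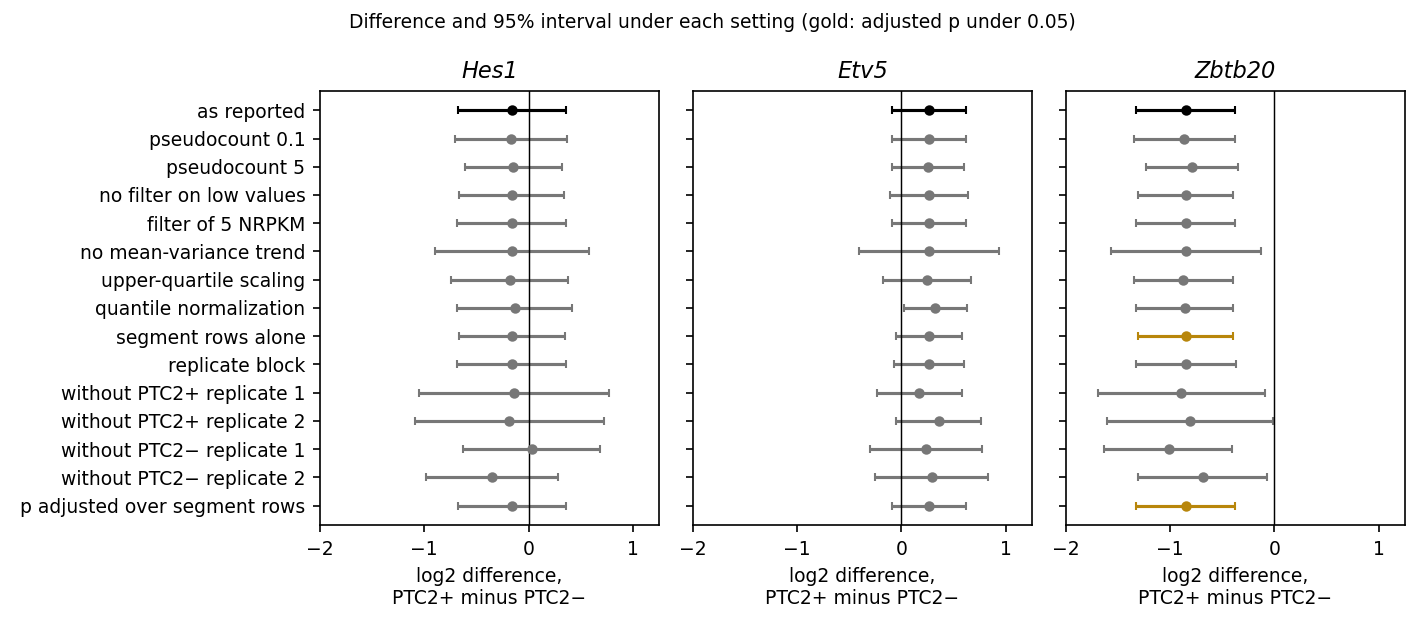
Log2 difference PTC2+ minus PTC2− (horizontal axis) of each member with its 95% interval under the reported setting and 14 others, with gold where the adjusted p was under 0.05. Zbtb20 keeps a negative difference in each setting, though only the scalings could have turned its sign. It is gold in the pair of settings that adjust over segment rows, while the interval of Hes1 includes 0 in each setting.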

How the data were processed

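The authors deposited 1 table of normalized RPKM (NRPKM, per the file headers), with 1 column per library. Per the labels' protocols, cDNA came from NuGEN Ovation amplification and libraries from Nextera XT, and the headers place all 4 in 1 lane. TopHat2 2.0.5, TopHat, Cufflinks 2.0.0 and mm9 appear in the submitters' processing notes. The counting tool, gene models and further normalization are not given in the sources used here.

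Segments run in table order from Naa60 to Mrps6 (chromosome 16), Ighmbp2 to Pygm (chromosome 19) and Insr to Agpat5 (chromosome 8), 1303 rows in all. By gene ID, 32916 rows matched RefSeq. Log2(NRPKM + 1) was tested with limma 3.58.1 in R 4.3.3 (mean-variance trend, Benjamini-Hochberg, threshold 0.05) on rows that reached 1 NRPKM in 2 or more libraries, after checks on simulated data. The log2(NRPKM + 1) scale understates the change of low genes.

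Whole reads were not recovered from the low values, so the depth per library and its counting error are unknown. No count test was run. Positions and transcript lengths are those of GENCODE M21 on GRCm38, not of mm9.

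The members, segments and lists were chosen with earlier results of these data known. For Zbtb20 that includes its difference. List genes and neighbours were named by fixed rules: all list genes inside the segments could be named (1 is counted but not reported here), with values for called and abundant ones, plus the nearest 2 protein-coding genes on each side and the 3 genes of most like pattern. Alternatives were other pseudocounts, filters, scalings, row sets, a replicate block and leaving out each library.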

Additional observations from a re-analysis of the deposited data

How the results depend on the processing

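The difference of Zbtb20 kept its sign in all 14 other settings and that of Etv5 did too, but few settings could have turned it. Changes of filter, trend, block or rows tested leave the difference as it is. As the populations did not overlap in either gene, a pseudocount or leaving out 1 library could not turn its sign. Only the scalings could have done so. Zbtb20 (-0.85) was called with segment rows fitted alone (-0.85, limma adjusted p = 0.0424) and with p adjusted over segment rows (-0.85, limma adjusted p = 0.0473, a setting chosen after seeing the data), where fewer rows were tested, and in no other setting (adjusted p 0.0721 to 0.357). Leaving out 1 library gave log2 differences of -1.02 to -0.69 for Zbtb20, 0.17 to 0.36 for Etv5 and -0.35 to 0.029 for Hes1. The sign of Hes1 turned without PTC2− replicate 1 (0.029). The count of 345 rows changed in all became 214 with a pseudocount of 0.1, 200 with no trend, 0 with no filter in limma (2596 at an unadjusted p under 0.05), 80 and 79 with segment rows fitted or adjusted alone, where fewer rows were tested, and 0 to 42 without 1 library, where fewer samples were used. The 79 rows were 11.1% of the 711 segment rows tested, and the 345 were 2.92% of all 11807, so the share rose while the count fell. The filter of 5 NRPKM also tested fewer rows (8141), and there Zbtb20 was not called (limma adjusted p = 0.0721). For pseudocount, trend, filter and segment rows, the call of Zbtb20 among segment rows included, the cause was not tested. The replicate number, whose meaning the labels do not give, correlated at 0.0229 over all rows tested and 0.0917 over the segment rows tested; with it as a replicate block 332 rows changed, and Zbtb20 (-0.85, limma adjusted p = 0.0906), Etv5 and Hes1 kept their side of the threshold. Of the 6 other called genes named outside the marker lists, tried after seeing the data, 6 lost the call with no filter, 6 with no trend, 3 with a pseudocount of 0.1 and Dtx3l with the block (limma adjusted p = 0.0595); 0 turned sign. The depth behind the values is unknown, so what it limits could not be set.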
